A study of Mus musculus with 4 samples.

Results

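The subject is the set of genes that encode the standard proteasome of the mouse, its assembly factors, its activators and its inhibitor, read in activated T cells with and without ceramide synthase 6. Members were found by name: every protein-coding gene whose symbol starts with Psma, Psmb, Psmc, Psmd, Psme, Psmf or Psmg followed by a digit, except the immunoproteasome genes Psmb8, Psmb9 and Psmb10. The rule found 47 of 35275 genes in the table and used no measured value. By role they comprise 8 genes of the alpha ring and 8 of the beta ring of the core, 6 ATPases and 3 non-ATPase subunits of the base, 8 lid subunits, 3 chaperones of base assembly, 4 chaperones of core assembly, 5 activators and the inhibitor gene Psmf1. The remaining match, Psmc3ip, encodes a protein of meiotic recombination and shares only its name with the proteasome. Some of the core genes are specialised forms, Psma8 of the testis and Psmb11 of the thymic cortex.

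Total RNA was sequenced from splenic T cells of C57BL/6 mice after activation in culture for 3 days with antibodies to CD3 and CD28 and with IL-2, a treatment that all groups share. The 4 groups were wild type or lacking Cers6, each at an age of 2 and of 8 months, with 1 library per group. Values for the 4 libraries are listed with the younger wild type first, then the older wild type, the younger knockout and the older knockout. The submitters' design text mentions duplicates. From the labels it cannot be told whether a library pools animals, which exon of Cers6 was removed or whether the knockout is restricted to a cell type.

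The proteasome is the barrel-shaped protease that degrades most proteins tagged with ubiquitin. Its core is built from stacked alpha and beta rings, with the proteolytic sites inside the beta rings. A regulatory particle caps the core: its base holds a ring of ATPases that unfold substrates, and its lid removes the ubiquitin chain. In T cells, activation is accompanied by rapid growth and division, and proteasome activity is needed for cell cycle progression and NF-kB signalling. The subunits are known in mammals to be controlled in part as a group by the transcription factor Nfe2l1.

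Library depth was 24239344, 21886108, 18145555 and 20342672 counts, and 12937 to 14413 genes had 10 or more. Levels are given as normalised read counts (TMM-scaled CPM, called CPM below), on which 3 counts correspond to 0.128 to 0.174. Cers6 itself, on GRCm38 chromosome 2 from 68861441 to 69114282, measured 13.1, 32.0, 9.17 and 3.38 CPM, lower in each knockout library than in the wild type of its age, and detected in both. All 9 T cell markers, Cd3d and Cd3e among them, were detected in every library, at 2387, 2051, 2429 and 1859 CPM in sum. All 10 B cell markers were detected as well, at 2456, 3552, 2106 and 1415 CPM in sum. The B cell sum was above the T cell sum in both wild type libraries and below it in both knockout libraries. Such sums over different genes do not give shares of cells. The wild type library at 2 months held 10117 counts of Xist, the RNA of the inactive X chromosome, against 0 to 4 in the other 3, while the Y-linked gene Ddx3y had 515 to 1844 counts in all 4. The sex of the animals is not given in the labels. The part of this difference in the proteasome values was not tested. In RNA from a mixed culture, fewer cells of a kind and less RNA per cell cannot be told apart.

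Proteasome transcripts were lowest in the knockout at 8 months. The 47 genes together measured 5882, 5546, 5443 and 3697 CPM. As a share of all counts they took 0.557% (0.554 to 0.560), 0.537% (0.534 to 0.540), 0.517% (0.513 to 0.520) and 0.425% (0.422 to 0.427), with exact Clopper-Pearson 95% intervals. The first 3 libraries lay close together and the knockout at 8 months lay apart below them. These intervals, and all intervals on single-library folds, cover counting error only, since no group was replicated.

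**Figure D1:**
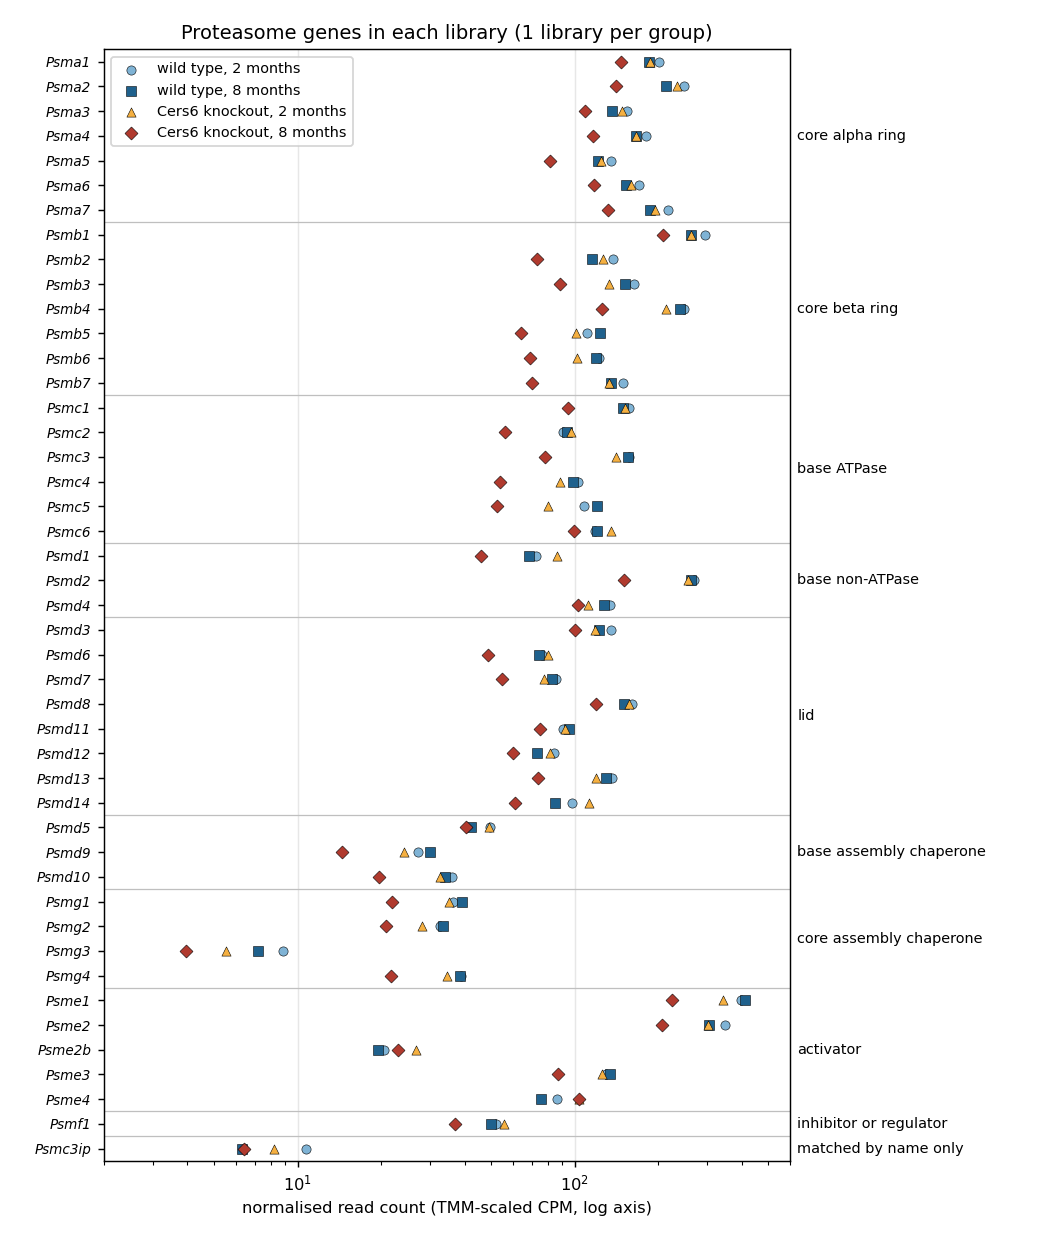
Normalised read count (TMM-scaled CPM, log axis) of the 45 proteasome genes with 50 or more counts in a library, 1 point per library and gene, grouped by role. The knockout library at 8 months (red diamonds) is the lowest point in 42 genes, and the other 3 libraries mostly overlap.

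Between the genotypes at 8 months, 43 of the 47 members were lower in the knockout, against 50.3% of the 12133 genes that reached 2 CPM in a library. Their median log2 fold was -0.60, against -0.0047 for those 12133 genes, and 17.6% of the genes lay below the members' median. The 12133 genes, used in every contrast here, were not matched to the members for level. Spearman's rho between CPM in wild type at 2 months and this fold was -0.30 over all these genes and -0.06 over the members. The part of level in the members' folds was not tested. The median member was Psma2, a core alpha subunit, at 247.9, 213.6, 233.6 and 140.5 CPM, with a log2 fold of -0.60 (-0.67 to -0.54). At least 1.5-fold lower were 25 members, 1 of them Psma8 with 8 and 3 counts, against 18.5% of genes. At least 2-fold lower were Psmc5 and Psmd9, and Psma8 at the same low counts, against 6.47% of genes. The counting interval lay below 0 in 41 members and above 0 in 2, Psme4 and Psme2b, against 40.5% and 38.4% of genes. Scaling by library size alone moved the median of all genes by 0.24 on the log2 scale, which left a member median of -0.36 and 11 members 1.5-fold lower, against 9.99% of genes. The distance between the members' median and that of all genes was -0.60 under both scalings. It was -0.39 with an offset for gene length, where the median of all genes was -0.09, and -0.35 with an offset for length and GC share.

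At 2 months the same comparison gave a median log2 fold of -0.12, against -0.01 for all genes. Of the 47 members, 36 were lower in the knockout and 10 higher, against 51.1% of genes lower. The core assembly chaperone gene Psmg3 was the only member at least 1.5-fold lower, against 6.00% of genes, and none was 1.5-fold higher, against 4.40%. The counting interval was below 0 in 27 members and above 0 in 6, with 26.6% and 27.0% of genes on those sides. An offset for gene length turned the median to 0.03, against 0.02 for all genes, with 19 members lower and 28 higher, against 46.8% of genes lower, so that its direction depended on that choice. At 8 months the same offset gave a median of -0.48 with 43 members lower, against 55.9% of genes.

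**Figure D2:**
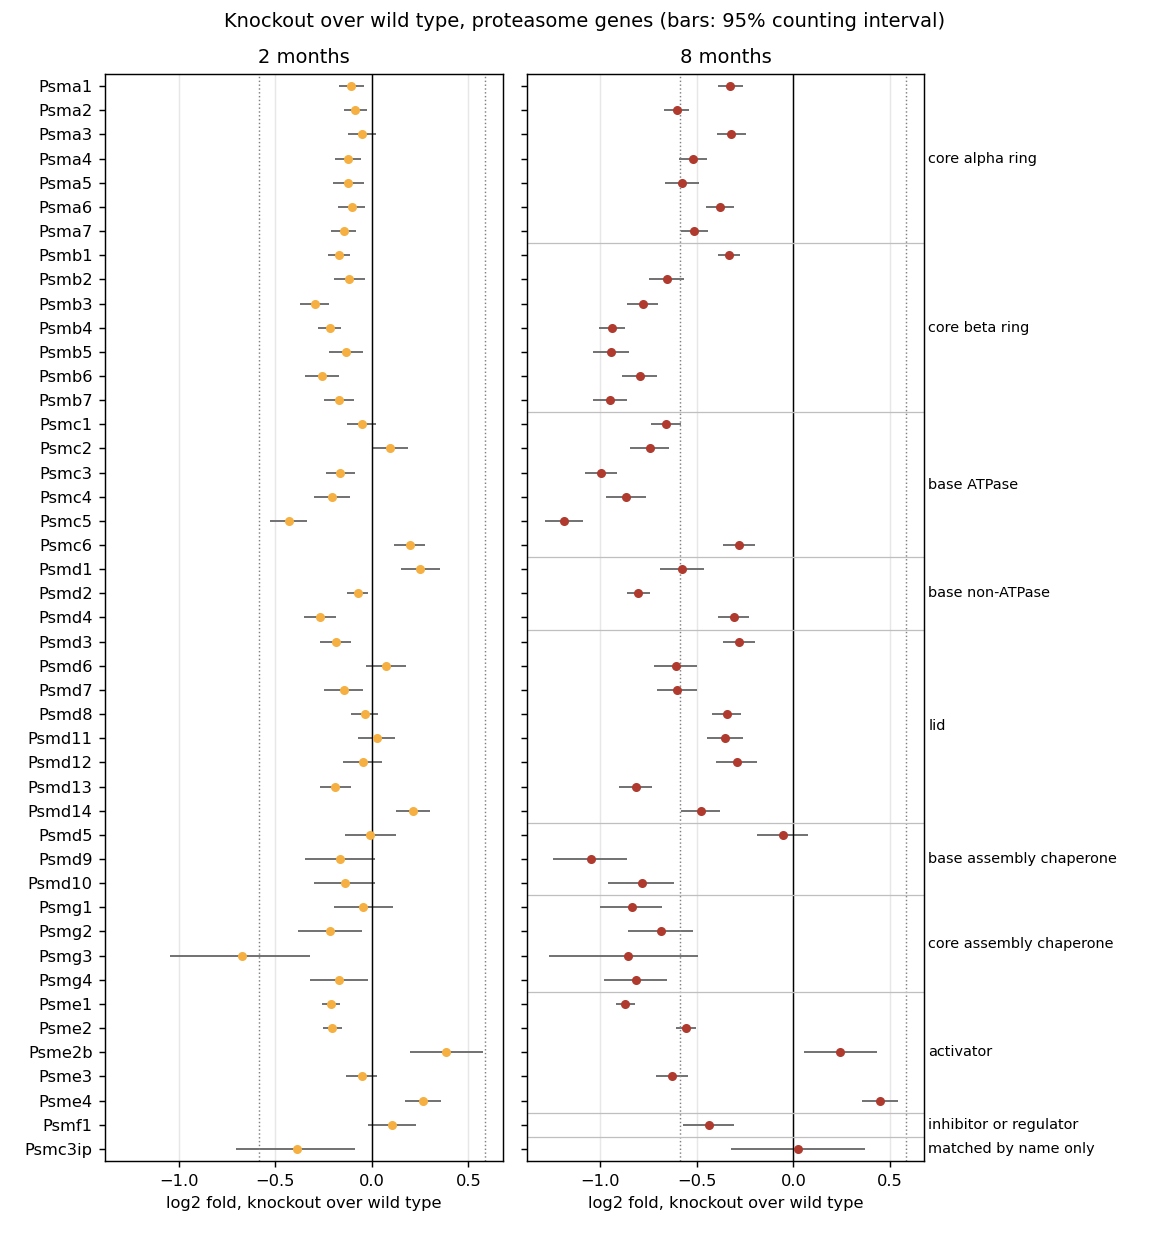
log2 fold of knockout over wild type for the 45 proteasome genes with 50 or more counts in a library, at 2 months (left) and 8 months (right), with bars for the 95% counting interval and dotted lines at 1.5-fold. At 2 months the points lie between -0.67 and 0.39 around a median of -0.12, and at 8 months between -1.19 and 0.45 around a median of -0.60.

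Age was compared within each genotype. In wild type, 35 members were lower at 8 than at 2 months and 11 higher, against 52.9% of genes lower, with a median log2 fold of -0.08 against -0.02 for all genes. In the knockout, 46 were lower, against 52.6% of genes, with a median of -0.57 against -0.04. The exception, Psmb11, had 0 and 3 counts. At least 1.5-fold lower with age in the knockout were 22 members, against 15.4% of genes, and the counting interval lay below 0 in 44, against 40.6%. In wild type the meiotic gene Psmc3ip was the only member 1.5-fold lower, against 6.68% of genes. The 4 contrasts share libraries, so the genotype contrast at 8 months and the age contrast in the knockout both contain the library that lay apart.

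Member by member, the knockout at 8 months was the lowest library in 42 of the 45 members that reached 2 CPM, against 38.4% of genes. The 3 others, Psme2b, Psme4 and Psmc3ip, were lowest in wild type at 8 months. In 39 of the 45 the gap between that library and the next lowest exceeded the whole range of the other 3, against 22.7% of genes. The median gap was 0.55 and the median range of the other 3 was 0.20, both on the log2 scale. Psmd4, Psmd5, Psmg3, Psme2b, Psme4 and Psmc3ip did not show such a gap. Both knockout libraries lay below both wild type libraries in 24 of the 45, against 21.3% of genes. In 35 the knockout was below wild type at both ages, against 30.8% of genes, and in 35 the level was lower at 8 months in both genotypes, against 30.4%. The genotype log2 fold was lower at 8 than at 2 months in 43, with a median difference of -0.52, against 52.9% of genes and a median of -0.05. With 1 library per group this difference could not be tested.

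**Figure D3:**
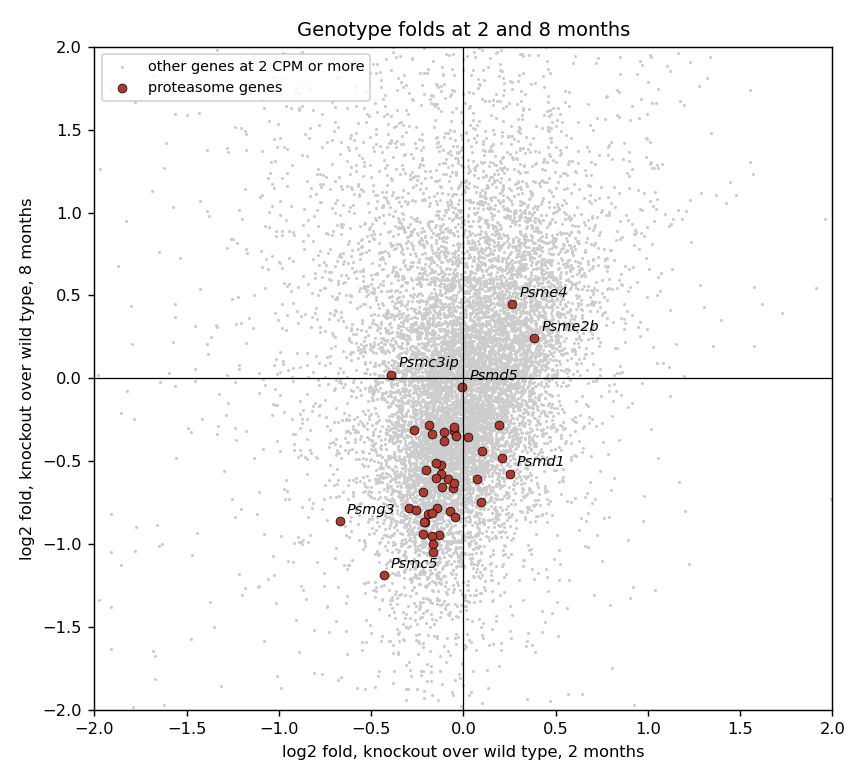
Each point is 1 gene, with its log2 fold of knockout over wild type at 2 months (x axis) and at 8 months (y axis), proteasome genes in red and other genes at 2 CPM or more in grey. Axes end at 2 on the log2 scale, so 412 of the other genes are not drawn. The proteasome genes sit near 0 on the x axis and mostly below 0 on the y axis, down to -1.19 for Psmc5, with Psme4 and Psme2b above 0 on both.

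Genotype across the ages, and age across the genotypes, were tested in an additive model, in which the 2 ages stand in for replicates of a genotype. By edgeR's quasi-likelihood test with Benjamini-Hochberg adjustment over 13906 genes, 0 of the 45 members tested passed for genotype, against 0.0288% of genes, and 0 for age, against 0.259%. At an unadjusted p under 0.05 there were 2 members for genotype, Psmc5 and Psmc3, against 8.38% of genes, and 0 for age, against 8.31%. DESeq2 also called 0 members for either effect, against 0.129% of genes for genotype and 0.431% for age, and limma-voom 0, against 0.0863% and 0.424%. At an unadjusted p under 0.05 DESeq2 had 2 members for genotype, against 5.94% of genes, and 0 for age, against 5.84%. By limma-voom these counts were 8, against 9.81%, and 1, against 9.18%. The fitted genotype effect was below 0 in 43 members with a median of -0.34, and the fitted age effect in all 45 with a median of -0.31, against 49.9% of genes for each effect. The model counts any difference of the genotype effect between ages as spread, and it has 1 residual degree of freedom.

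Leaving out 1 library at a time, with the tested factor alone in the fit and its lone library assumed to vary like the others, changed these counts. Without the knockout at 2 months, 7 members passed for genotype, all lower, against 3.91% of genes. Without the wild type at 8 months, 27 members passed for age, all lower, against 23.4% of genes. In both fits the knockout at 8 months stood alone on its side. Without that library 0 members passed for either effect, against 0.00% of genes for genotype and 4.96% for age, and the median was -0.06 for genotype and -0.05 for age. In the authors' deposited table of 35275 genes, 0 members had an adjusted p under 0.05 in any of the 4 contrasts. Between the genotypes, 10 genes had one at 2 months and 1403 at 8 months. With age, 409 genes had one in wild type and 840 in the knockout. The smallest member value was 0.0877 for Psmc5 between the genotypes at 8 months.

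The alpha ring is the gate of the core, through which substrates enter. Its 8 genes summed to 1306, 1163, 1214 and 843.5 CPM. All 8 were lower in the knockout at 8 months, against 50.3% of genes, with a median log2 fold of -0.52. The 7 expressed ones lay between Psma2 at -0.60 and Psma3 at -0.32. Psma3 measured 153.8, 136.4, 148.5 and 109.2 CPM, a log2 fold of -0.32 (-0.40 to -0.24) at 8 months against -0.05 (-0.12 to 0.02) at 2 months. The knockout at 8 months was the lowest library for each of these 7 genes and the wild type at 2 months the highest. Psma8, whose product replaces an alpha subunit in the testis, had 3, 8, 3 and 3 counts, at or near the limit of detection. Its fold is therefore not given, though the count of 8 lower genes and the ring's median include it.

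The beta ring carries the proteolytic sites, with Psmb5 for the chymotrypsin-like, Psmb6 for the caspase-like and Psmb7 for the trypsin-like activity. Its 8 genes summed to 1226, 1148, 1071 and 698.2 CPM, and their median log2 fold at 8 months was -0.79. Psmb7 measured 149.3, 135.6, 132.8 and 70.2 CPM. Its log2 fold was -0.95 (-1.04 to -0.86) between the genotypes at 8 months and -0.17 (-0.25 to -0.09) at 2 months, and with age it was -0.92 (-1.01 to -0.83) in the knockout and -0.14 (-0.21 to -0.07) in wild type. Psmb5 measured 110.4, 123.1, 100.7 and 64.0 CPM, with a log2 fold of -0.94 (-1.04 to -0.85) at 8 months. Psmb6 measured 122.2, 119.3, 102.2 and 68.7 CPM. The knockout at 8 months was the lowest library for all 3 catalytic genes, while the highest was wild type at 8 months for Psmb5 and wild type at 2 months for Psmb6 and Psmb7. Among the structural beta genes the fold at 8 months ran from -0.94 in Psmb4 to -0.33 in Psmb1. Psmb11, the thymic form, had 0, 0, 0 and 3 counts, so no fold is given, though the ring's median includes it.

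Per length, mean level of the beta genes over that of the alpha genes was 1.085, 1.142, 1.026 and 0.972 as FPKM. With medians in place of means the ratio was 0.829, 0.934, 0.811 and 0.735, so that whether it lay above or below 1 depended on the summary. The knockout at 8 months had the lowest ratio by either.

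The ATPases form the unfolding ring of the base. They summed to 733.3, 737.5, 692.3 and 434.0 CPM. All 6 were lower in the knockout at 8 months, against 50.3% of genes, with a median log2 fold of -0.81. Lower by 1.5-fold or more were 5 of them, against 18.5% of genes. Psmc5 measured 107.7, 119.9, 79.8 and 52.6 CPM. Between the genotypes it differed by a log2 fold of -0.43 (-0.53 to -0.34) at 2 months against -1.19 (-1.29 to -1.09) at 8 months, the lowest of the members with 50 or more counts at 8 months. Both knockout libraries were below both wild type libraries, and the additive genotype effect was -0.80 (SE 0.26, unadjusted p = 0.00645, edgeR adjusted p = 0.518). Psmc3 measured 157.3, 156.1, 140.4 and 78.1 CPM, a log2 fold of -0.998 (-1.08 to -0.92) at 8 months, with an additive genotype effect of -0.57 (SE 0.27, unadjusted p = 0.0494, edgeR adjusted p = 0.593). Psmc3 overlaps Slc39a13 on the other strand over 4579 bases, and Slc39a13 had 238, 270, 139 and 417 counts. Those counts were highest in the knockout at 8 months and lowest in the knockout at 2 months. The part of this overlap in the Psmc3 values was not tested. Psmc6 measured 118.0, 120.7, 135.1 and 99.3 CPM, with a log2 fold of 0.20 (0.11 to 0.28) at 2 months against -0.28 (-0.36 to -0.20) at 8 months, the ring's fold nearest to 0. Psmc2 gave 90.5, 93.5, 96.6 and 55.8 CPM, slightly higher in the knockout at 2 months and lower at 8 months, at log2 folds of 0.09 and -0.75.

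The other base subunits are Psmd1 and Psmd2, large scaffold proteins on which ubiquitin shuttle factors dock, and Psmd4, a ubiquitin receptor. Psmd2 measured 268.7, 262.6, 255.2 and 150.5 CPM. Its first 3 libraries differed by 0.07 on the log2 scale at most, and its fold at 8 months was -0.80 (-0.86 to -0.74). Psmd4 measured 134.1, 127.8, 111.4 and 103.0 CPM, and its log2 folds of -0.27 (-0.35 to -0.19) at 2 months against -0.31 (-0.39 to -0.23) at 8 months had overlapping counting intervals. Psmd1, at 72.7, 68.6, 86.6 and 46.0 CPM, was higher in the knockout at 2 months with a log2 fold of 0.25 (0.15 to 0.35) and lower at 8 months with -0.57 (-0.69 to -0.46).

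The lid holds the deubiquitinating subunit Psmd14 among 8 genes, which summed to 865.5, 813.8, 837.8 and 591.6 CPM. All 8 were lower in the knockout at 8 months, against 50.3% of genes, 3 of them 1.5-fold or more, against 18.5%. The median log2 fold of -0.42 was nearer to 0 than that of the alpha ring, the beta ring or either part of the base. Psmd13 measured 136.2, 130.1, 119.4 and 73.8 CPM, with a log2 fold of -0.82 (-0.91 to -0.73) at 8 months. Psmd13 overlaps Sirt3 on the other strand over 342 bases, and Sirt3 had 341, 201, 234 and 415 counts. Psmd3 measured 134.9, 121.9, 118.4 and 100.3 CPM, with a log2 fold of -0.28 (-0.36 to -0.20). Psmd14 gave 97.4, 84.6, 112.8 and 60.7 CPM, so that the knockout was the highest library at 2 months and the lowest at 8 months. Its log2 folds were 0.21 (0.12 to 0.30) and -0.48 (-0.58 to -0.38). Mean lid level over mean alpha level per length stayed between 0.385 and 0.407 in the 4 libraries, while the ATPases over the alpha genes ran at 0.468, 0.529, 0.471 and 0.434.

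**Figure D4:**
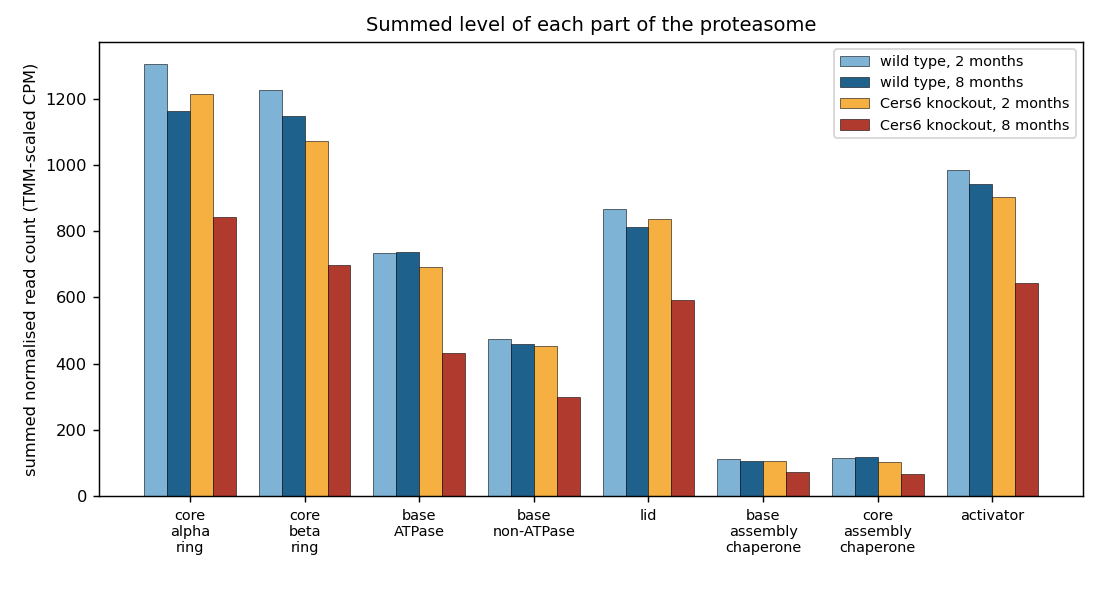
Summed normalised read count (TMM-scaled CPM) of the genes in 8 roles, without Psmf1 and Psmc3ip, 1 bar per library and no error bars because each group has 1 library. In each of these roles the knockout at 8 months has the lowest bar, from 843.5 CPM for the alpha ring down to 68.4 CPM for the core assembly chaperones.

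Chaperones build the proteasome but are absent from the finished particle. Per length, the 3 base assembly genes had a mean level of 16.7, 15.9, 15.5 and 10.4 FPKM, below the lid genes at 58.1, 54.5, 56.8 and 39.2 FPKM. The base assembly genes summed to 112.6, 106.2, 106.0 and 74.8 CPM. Psmd9 had 27.2, 29.9, 24.3 and 14.4 CPM, with a log2 fold of -1.05 (-1.25 to -0.86) at 8 months against -0.16 (-0.35 to 0.02) at 2 months. Psmd5 had 49.4, 42.2, 49.1 and 40.7 CPM, and its log2 folds of -0.01 (-0.14 to 0.12) and -0.05 (-0.19 to 0.08) were within counting error at both ages. Both libraries of 8 months were below both of 2 months for Psmd5. Psmd10, known as the oncoprotein gankyrin, had a log2 fold of -0.79 (-0.96 to -0.62) at 8 months.

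For core assembly, Psmg1 pairs with Psmg2 and Psmg3 with Psmg4 as chaperones of the alpha ring. The 4 genes summed to 116.7, 118.2, 103.4 and 68.4 CPM. All 4 were 1.5-fold lower or more in the knockout at 8 months, against 18.5% of genes, with a median log2 fold of -0.83. Psmg3 had 203, 153, 95 and 92 counts, or 8.84, 7.22, 5.52 and 3.94 CPM. Both knockout libraries were below both of wild type, at log2 folds of -0.67 (-1.05 to -0.32) at 2 months against -0.86 (-1.26 to -0.49) at 8 months. Psmg2 had 32.5, 33.5, 28.0 and 20.8 CPM, with a log2 fold of -0.69 (-0.86 to -0.52) at 8 months.

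Activators are caps that open the core without ATP. Psme1 and Psme2 together form the interferon-inducible cap linked to antigen presentation, Psme3 forms a nuclear cap, and Psme4 encodes a large nuclear activator involved in histone turnover. Psme1 measured 397.9, 409.8, 343.7 and 224.2 CPM, with log2 folds of -0.21 (-0.26 to -0.16) at 2 months against -0.87 (-0.92 to -0.82) at 8 months. Psme2 had a log2 fold of -0.56 and Psme3 of -0.63 at 8 months. Psme4 went the other way, at 86.6, 75.6, 104.0 and 103.2 CPM. Both of its knockout libraries were above both of wild type, with log2 folds of 0.26 (0.17 to 0.36) and 0.45 (0.36 to 0.54), and the knockout libraries differed by -0.01 (-0.10 to 0.08) with age. Its additive genotype effect of 0.36 (SE 0.24) did not pass (edgeR adjusted p = 0.686). Psme4 is also the longest of the activator genes in the table, at 6491 bases.

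Psme2b, on chromosome 11, was likewise higher in both knockout libraries, at 20.5, 19.4, 26.8 and 23.0 CPM, but its values are uncertain. Its transcript is identical to that of Psme2 in 99.4% of 794 aligned positions, and its 837 bases lie wholly within Gm12185 on the same strand, which had 464, 282, 409 and 609 counts. Psmf1, the inhibitor, measured 51.8, 49.98, 55.6 and 36.9 CPM, with log2 folds of 0.10 (-0.02 to 0.23) at 2 months against -0.44 (-0.57 to -0.31) at 8 months. Psmc3ip had 247, 133, 141 and 149 counts. It was highest in wild type at 2 months, and its fold at 8 months was 0.02 (-0.32 to 0.37), within counting error.

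Immunoproteasome genes stand outside the rule and replace the 3 catalytic beta subunits in cells exposed to interferon and in lymphocytes. Psmb10 measured 172.9, 172.2, 144.8 and 66.3 CPM, a log2 fold of -1.37 (-1.46 to -1.29) at 8 months. Psmb8 measured 292.0, 228.5, 225.6 and 182.8 CPM, at -0.32 (-0.38 to -0.26). Psmb9 measured 487.8, 394.3, 403.9 and 400.1 CPM, at 0.02 (-0.02 to 0.06). The folds of the 3 genes at 8 months had counting intervals that did not overlap, but the spread between animals was not measured. Expressed per length as a share of its pair, Psmb9 made up 57.2%, 52.5%, 57.0% and 66.1% of Psmb9 and Psmb6. Psmb8 made up 54.7%, 45.9%, 50.6% and 56.6% of Psmb8 and Psmb5. Psmb10 made up 51.4%, 53.7%, 49.9% and 46.3% of Psmb10 and Psmb7. The share was thus highest in the knockout at 8 months for Psmb9 and Psmb8 and lowest there for Psmb10. Whether a share lies above or below an equal split depends on the deposited gene lengths.

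**Figure D5:**
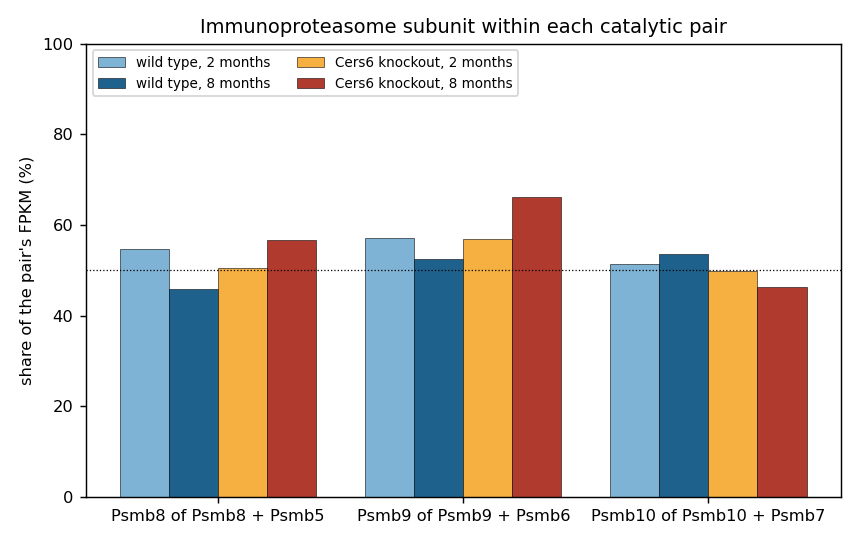
Share of each catalytic pair's level per length (FPKM) that the immunoproteasome gene contributed, in percent, 1 bar per library, with a dotted line at an equal split. In the knockout at 8 months Psmb9 reached 66.1% and Psmb8 56.6%, while Psmb10 was at 46.3%.

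Among 38 pathway genes outside the rule, 0 passed either edgeR test. In the knockout at 8 months 24 of them were lower, against 50.3% of genes, with a median log2 fold of -0.28. Of the 38, 8 were 1.5-fold lower or more, against 18.5% of genes, and 4 were 1.5-fold higher or more, against 20.9%. Pomp, the chaperone that matures the core, measured 183.4, 180.8, 152.5 and 90.5 CPM, a log2 fold of -0.997 (-1.08 to -0.92). Bach1, a transcriptional repressor that competes for small Maf partners, measured 24.8, 19.8, 27.7 and 42.2 CPM, at 1.09 (0.93 to 1.26). Ddi2, the protease that activates Nfe2l1, measured 74.2, 71.2, 92.3 and 118.9 CPM, at 0.74 (0.65 to 0.83). Bach1 and Ddi2 were highest in the knockout at 8 months, where Pomp was lowest. The transcripts of Nfe2l1 itself measured 75.9, 89.5, 76.1 and 73.9 CPM, at -0.28 (-0.37 to -0.18), and those of its relative Nfe2l2 34.1, 38.9, 35.2 and 39.6 CPM, at 0.03 (-0.11 to 0.16). By list, 8 of 11 proteasome-associated genes, 8 of 10 genes of ubiquitin and unfolding, 3 of 6 shuttle factors, 3 of 8 transcriptional regulators and 2 of 3 immunoproteasome genes were lower at 8 months, to be read against the same 50.3% of genes.

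Other marker lists differed between the same libraries. Each count of lower genes below is for knockout over wild type at 8 months, where 50.3% of the 12133 genes were lower. Proliferation genes such as Mki67 and Mcm2 summed to 3792, 3075, 4518 and 1618 CPM, with 10 of 10 lower in the knockout at 8 months and a median log2 fold of -1.30. General housekeeping genes such as Actb and Gapdh summed to 22500, 19790, 21260 and 10480 CPM, with 10 of 10 lower and a median of -0.84. B cell markers summed to 2456, 3552, 2106 and 1415 CPM, with 9 of 10 lower and a median of -1.12, and none of the 10 was at 0 in any library. These 3 lists had their lowest sum in the knockout at 8 months. Neutrophil markers summed to 1.74, 125.7, 0.232 and 6.04 CPM, and 6 of the 10 were at 0 in the knockout at 2 months. Monocyte and macrophage markers summed to 243.1, 393.2, 214.6 and 257.8 CPM. T cell markers summed to 2387, 2051, 2429 and 1859 CPM, so that their lowest sum was also in the knockout at 8 months. Of these markers 7 of 9 were lower, with a median log2 fold of -0.10. Neither neutrophil nor monocyte and macrophage markers had their lowest sum in the knockout at 8 months. The part of these lists in the proteasome values was not tested.

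Promoters are shown for 4 members that span the range of the genotype fold at 8 months: Psmb5 and Psmc5 among the lowest, Psmd2 as a scaffold gene with a like fold and Psme4 as a member that was higher. Each covers 250 bases before and 50 after the annotated start, from RefSeq on GRCm38.p6, 5′ to 3′ on the gene's strand. Capitals mark matches, on either strand, to the searched motifs: the antioxidant response element core TGACNNNGC, the CCAAT box, the E-box CACGTG, the ETS motif CCGGAAG and the GC box GGGCGG. In Psme4 the GC box and the ETS motif share 1 base.
Psmb5: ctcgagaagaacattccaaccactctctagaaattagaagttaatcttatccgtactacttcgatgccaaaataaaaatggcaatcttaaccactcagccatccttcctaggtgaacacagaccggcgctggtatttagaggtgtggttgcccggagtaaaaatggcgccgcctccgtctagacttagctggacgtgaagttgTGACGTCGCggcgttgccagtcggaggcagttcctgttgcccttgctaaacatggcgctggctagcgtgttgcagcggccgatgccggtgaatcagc
Psmd2: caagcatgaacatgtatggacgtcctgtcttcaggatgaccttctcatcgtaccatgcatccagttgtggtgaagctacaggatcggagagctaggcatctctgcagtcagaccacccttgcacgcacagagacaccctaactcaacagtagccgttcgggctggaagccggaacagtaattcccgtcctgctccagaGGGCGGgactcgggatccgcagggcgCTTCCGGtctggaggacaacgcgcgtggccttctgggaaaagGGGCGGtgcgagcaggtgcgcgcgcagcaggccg
Psmc5: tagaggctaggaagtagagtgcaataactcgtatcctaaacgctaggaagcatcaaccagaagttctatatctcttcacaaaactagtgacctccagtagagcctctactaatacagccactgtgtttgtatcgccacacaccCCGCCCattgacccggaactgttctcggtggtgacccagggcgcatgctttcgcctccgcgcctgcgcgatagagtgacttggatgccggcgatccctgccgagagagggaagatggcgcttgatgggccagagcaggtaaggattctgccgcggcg
Psme4: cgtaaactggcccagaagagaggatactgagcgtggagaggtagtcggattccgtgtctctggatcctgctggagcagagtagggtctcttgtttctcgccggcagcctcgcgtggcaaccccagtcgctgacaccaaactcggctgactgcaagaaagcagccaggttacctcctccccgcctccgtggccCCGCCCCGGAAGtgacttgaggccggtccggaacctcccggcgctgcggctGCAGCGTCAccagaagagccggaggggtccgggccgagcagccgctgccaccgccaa
Psmb5 (chr14:54617946-54618245, minus strand) held the antioxidant response element core, the letters read by Nfe2l1 and Nfe2l2 with small Maf proteins. Psmd2 (chr16:20651402-20651701, plus strand) held 1 ETS motif and 2 GC boxes. Psmc5 (chr11:106255935-106256234, plus strand) held 1 GC box. Psme4 (chr11:30771525-30771824, plus strand) held the antioxidant response element core, an ETS motif and a GC box.

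A promoter was found for 39 of the 47 members. The ETS motif was present for 15 of the 39, or 38.5%, against 9.93% of the 27025 genes with a promoter. The GC box was present for 22, or 56.4%, against 38.2%. That background took in genes whether expressed or not, unlike the 12133 genes used for the folds. The antioxidant response element core was present for 6, or 15.4%, against 14% of genes, the CCAAT box for 14, or 35.9%, against 41.1%, and the E-box for 3, or 7.69%, against 8.09%. The 6 genes with the antioxidant response element core were Psmb5, Psmb6, Psmc6, Psmd12, Psmd9 and Psme4. Their median log2 fold at 8 months was -0.54, against -0.58 for the 33 without it, and for the ETS motif the medians were -0.61 with and -0.58 without. A match describes letters in these windows and not binding.

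By position, chromosome 11 held 10 of the 47 members, or 21.3%, against 7.38% of all protein-coding genes, chromosome 14 held 6, against 4.15%, and chromosome 2 held 6, against 8.30%. Across the 45 members with 2 CPM or more, Spearman's rho between GC share of the longest transcript and the genotype log2 fold was -0.55 at 2 months against -0.38 at 8 months, and between gene length and the fold 0.27 and 0.17. Across all genes at 2 CPM or more the corresponding values were -0.35 and -0.08 for GC share and 0.37 and 0.30 for length. Between CPM in wild type at 2 months and the genotype fold, rho over all genes was 0.08 at 2 months and -0.30 at 8 months. Over the members it was -0.18 and -0.06. With age in the knockout, rho with that CPM was -0.45 over all genes and -0.09 over the members. These are descriptions over genes measured in the same pairs of libraries, with no test.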

How the data were processed

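RNA-seq of 4 libraries, 1 per group, was analysed from the authors' deposited gene table. The submitters' processing notes name CASAVA, STAR and 2 build names, GRCm38 and mm10, with no versions. How reads were counted, and whether by strand, is not stated in these notes. Raw read counts per gene were deposited, and the authors' deposited FPKM values equal those counts divided by length and library total within 1e-06. The authors' deposited log2 fold changes and the deposited adjusted p-values were used only where named. Of 35275 genes, 13774 had no count, 27 symbols turned into dates were restored by identifier, and 3 pseudogenes matching the name were left out.

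Levels and single-library folds used TMM factors of 0.947, 0.968, 0.949 and 1.15 with a prior count of 2, and are compared with the 12133 genes at 2 CPM or more in a library. Levels per length (FPKM) were recomputed with these factors and the deposited lengths. Intervals are exact at 95% (scipy 1.17.1). Tests used edgeR 4.0.16 (R 4.3.3), quasi-likelihood, age and genotype additive, on 13906 genes past filterByExpr, adjusted by Benjamini-Hochberg at 0.05, with 1 residual and 15.9 prior degrees of freedom. The fit was run on simulated data with a genotype effect alone, the same at both ages. That run did not cover a single library lying apart. DESeq2 1.42.0 and limma 3.58.1 were alternatives, and length and GC offsets used mgcv 1.9.3. Per-role values are given for the members with the highest and lowest fold at 8 months. Some members were named after their values were seen. Members, roles and lists were chosen with earlier results of these data known. A marker of the T cell list is not reported here and was left out of its values.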

Additional observations from a re-analysis of the deposited data

Results flagged for a closer look

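A difference of opposite sign between ages was found for 4 members, each with a counting interval clear of 0 at both ages and each higher in the knockout at 2 months and lower at 8 months. The second log2 fold minus the first was -0.84 for Psmc2, -0.48 for Psmc6, -0.83 for Psmd1 and -0.69 for Psmd14. For Psmc2 the interval at 2 months only just cleared 0. For 2 members the age fold had opposite signs in the genotypes, higher with age in wild type and lower in the knockout: the knockout fold minus the wild type fold was -0.81 for Psmb5 and -0.76 for Psmc5. These differences were not tested, since each group had 1 library, and all 6 involve the knockout at 8 months. The share of all genes that met either rule was not counted. Between the genotypes, the counting interval lay above 0 at 2 months in 27.0% of genes and below 0 at 8 months in 40.5%.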

How the results depend on the processing

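No paired analysis was possible because each group had 1 library. Between the genotypes at 2 months the median of -0.12 became 0.0285 with an offset for gene length and 0.00877 with an offset for length and GC share, and the count of members 1.5-fold lower went from 1 to 0 under both. At 8 months the median of -0.60 became -0.36 with library size alone, -0.48 with the length offset and -0.43 with length and GC, and the count of 25 became 11 with library size alone, against 9.99% of all genes, and 16 with length and GC, against 18.5%. With age in the knockout, library size alone gave a median of -0.30 and a count of 3, against 7.01% of all genes, in place of -0.57 and 22. The median of all genes was then 0.23. The distance between the members' median and that of all genes was -0.53 under both scalings. With age in wild type, the count was 0 without Psme1, Psme2, Psme2b and Psmc3ip. Leaving out 1 library gave 0 to 7 members for genotype and 0 to 27 for age. The cause of these differences was not tested. Without mitochondrial, immunoglobulin and T cell receptor counts, the members' shares were 0.571%, 0.556%, 0.527% and 0.435%. With medians in place of means, the ratio of beta to alpha genes was 0.829, 0.934, 0.811 and 0.735, of ATPases to alpha genes 0.492, 0.568, 0.472 and 0.404, and of lid to alpha genes 0.350, 0.369, 0.374 and 0.350. The offset for length and GC share was chosen after seeing the data. Counting error limits Psma8, Psmb11, Psmc3ip and Psmg3 most, and the spread between animals was not measured. In the additive fit no alternative using all 4 libraries called a member.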
